A study of Arabidopsis thaliana with 3 samples.

Results

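The WRKY genes of Arabidopsis thaliana encode a plant family of transcription factors named after the WRKY amino acid motif in their DNA-binding domain. Nuclear protein-coding genes whose symbol or synonym in the gene table was WRKY followed by a number were taken as members, which gave 71 of 27444 genes. Binding was read from ChIP-seq peak lists of DIG1 and DIG2, proteins studied in a series on transcription factors that respond to the hormone abscisic acid (ABA). Accession Col-0 seedlings were grown for 4 days in darkness in hydroponics and then treated for 6 h with 10 uM dexamethasone, a steroid that activates glucocorticoid-inducible constructs in plants. The 3 samples carried GFP alone, a GFP fusion of DIG1 (locus AT3G45810 per the labels) or a GFP fusion of DIG2 (AT5G50360), with 1 sample each, all precipitated with an antibody to GFP. Whether the DIG1 locus in the labels is right was not settled here. The labels name neither the promoter that drives the fusions nor the number of plant lines. Chromatin came from whole seedlings, so binding in fewer cells and weaker binding per cell cannot be told apart. The GFP sample was not analysed here.

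WRKY factors bind the W-box of target promoters, and many of them are themselves induced by pathogens, salicylic acid, wounding, drought or ABA. Many WRKY promoters hold W-boxes, so members regulate themselves and each other. The family is divided by its domains. Group I proteins have a pair of WRKY domains, group II proteins have a single domain and are split into IIa to IIe, and group III proteins have a single domain with a different zinc finger. VQ proteins bind WRKY domains as cofactors, and MAP kinases phosphorylate several group I members. The members WRKY18, WRKY40, WRKY60 and WRKY63 are known for roles in the ABA response.

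The peak lists held 13459 DIG1 summits in 11343 intervals and 16562 DIG2 summits in 13440 intervals. Each summit, the position of highest enrichment, came with the authors' fold enrichment (a linear ratio), from 1.61 to 16.7 for DIG1 and from 1.70 to 20.5 for DIG2, and a −log10 p of at least 16. Summits were ranked within their own list by −log10 p, with rank 1 the strongest. Each protein has a single list without replicates, and read depth is unknown, so no test of a difference between the factors was possible. Fold values and ranks are given side by side and describe each list alone.

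Most WRKY genes carried summits of both proteins. A summit lay inside the gene or within 1000 bp of either end at 47 of 71 WRKY genes for DIG1 (66.2%, 95% Wilson interval 54.6 to 76.1%), against 37.7% of all genes. For DIG2 the number was 54 of 71 (76.1%, 65.0 to 84.5%), against 42.3% of all genes. The Wilson intervals treat genes as independent and cover counting error only. Both proteins had a summit at 47 members, against 36.3% of all genes. DIG2 alone had one at 7 members (9.86%, against 6.03% of all genes), DIG1 alone at 0 members (against 1.4%), and neither at 17 members, against 56.3% of all genes. With a 500 bp window 1 member, WRKY28, had a DIG1 summit alone (1.41%, against 1.4% of all genes). That summit was weak (fold 2.07, rank 13265), and WRKY28 had a DIG2 summit farther out, at 762 bp. With −log10 p of at least 30 the counts were 43 for DIG1 and 50 for DIG2, against 28.3% and 35.2% of all genes.

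WRKY genes had more intergenic sequence around them than most genes, with a median of 4146 bp summed over both sides, against 1855.5 bp for all genes. Median gene length was 2110 bp, against 2078 bp. After these values were seen, all genes were divided by their summed flanks into 4 bins of about equal size. Among genes with flanks over 4027 bp, 26 of 36 WRKY genes had a DIG1 summit and 31 of 36 a DIG2 summit, against 39.1% and 44.9% of all genes in that bin. In the bin from 1856 to 4027 bp the numbers were 10 and 11 of 17, against 41.7% and 46.6%. In the bin from 703 to 1855 bp they were 8 and 9 of 14, against 39.2% and 43.6%. The bin with the shortest flanks held 4 WRKY genes, of which 3 had summits of both, against 30.8% of all genes in that bin for DIG1 and 34.3% for DIG2. In all 4 bins the WRKY share lay above that of all genes. The bins hold from 4 to 36 WRKY genes and flanks are not matched within a bin. The part of flank length in the family's share was not tested.

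**Figure D1:**
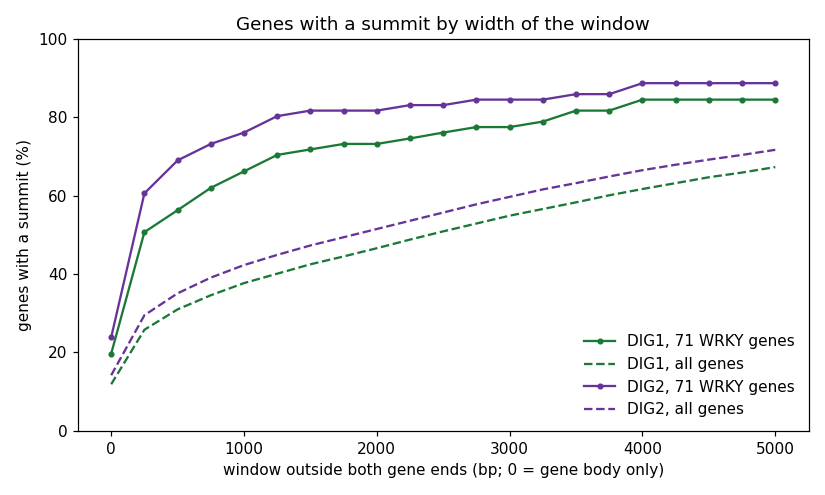
Share of genes with a summit (%) against the width of the window outside both gene ends (bp, with 0 for the gene body alone), for the 71 WRKY genes (solid) and all nuclear protein-coding genes (dashed). The WRKY lines lie above the dashed ones at every width drawn: inside genes 19.7% against 11.9% for DIG1, and at 3000 bp 77.5% against 54.9%.

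The share depended on the width of the window. Counting summits inside the gene body alone, 14 WRKY genes had a DIG1 summit and 17 a DIG2 summit (19.7% and 23.9%, against 11.9% and 14.2% of all genes). Within 500 bp the numbers were 40 and 49 (56.3% and 69.0%, against 31% and 35.1%), and within 3000 bp they were 55 and 60 (77.5% and 84.5%, against 54.9% and 59.7%). WRKY genes also reached the upper part of the lists. A summit from the strongest 25% of its list lay at 19 members for DIG1 (26.8%, against 11.6% of all genes) and at 23 for DIG2 (32.4%, against 12.6%). Within the 1000 strongest peaks the counts were 6 and 7 members (8.45% and 9.86%, against 4.2% and 3.98% of all genes). Among genes with a summit these were 6 of 47 members against 1152 of 10342 genes for DIG1. For DIG2 they were 7 of 54 against 1092 of 11613.

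The strongest WRKY peaks were at WRKY7 and WRKY63. WRKY7 (AT4G24240) encodes a calmodulin-binding factor of group IId. Its DIG1 fold was 10.9 at rank 78, and its DIG2 fold was 13.9 at rank 62. The strongest summit lay 155 bp inside the gene for DIG1 and 159 bp inside for DIG2, in peaks spanning chromosome 4, 12571384 to 12572069 and 12571321 to 12572062 (TAIR10). WRKY7 was bound near both ends. A second interval, chromosome 4, 12572837 to 12573860 in the DIG1 list, held further summits with folds of 10.6 and 6.32, 226 and 664 bp inside the gene. In the DIG2 list the corresponding summits had folds of 13.6 and 9.78. None of the summits assigned to WRKY7 lay outside the gene.

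WRKY63 (AT1G66600, also ABO3) encodes a group III factor of ABA and drought responses. It had a single summit per list, 274 bp outside the gene for DIG1 (fold 8.98, rank 130; chromosome 1, 24847538 to 24848408) and 287 bp outside for DIG2 (fold 12.3, rank 66; chromosome 1, 24845123 to 24848491). WRKY38 (AT5G22570), whose product is a repressor of basal defence, had the highest DIG2 fold of the family, 15.5 at rank 308, in a peak on chromosome 5, 7497603 to 7498389. Its DIG1 fold there was 7.48 at rank 1278. These summits lay 975 and 989 bp outside the gene, close to the limit of the window, and a weaker summit lay 15 bp (DIG2, fold 2.48) and 1 bp (DIG1, fold 2.21) outside the same end.

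WRKY8 (AT5G46350), a gene of salt and virus responses, carried 4 summits in each list. The strongest was 1265 bp inside the gene for DIG1 (fold 7.19, rank 896) and 1260 bp inside for DIG2 (fold 11.9, rank 506), on chromosome 5, 18802567 to 18803194 in the DIG1 list. The others lay outside both ends, with folds of 2.79 to 3.54 for DIG1 and 5.04 to 5.39 for DIG2. Among the members with the 10 strongest summits of each list, 9 were in both sets: WRKY3, WRKY7, WRKY8, WRKY14, WRKY27, WRKY38, WRKY40, WRKY47 and WRKY63. WRKY18 completed the DIG1 set (fold 6.33, rank 1739) and WRKY65 the DIG2 set (fold 8.98, rank 1709). WRKY3, a gene of resistance to necrotrophic fungi, had folds of 7.91 (DIG1, rank 621) and 9.68 (DIG2, rank 1242), with summits 817 and 824 bp outside it.

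**Figure D2:**
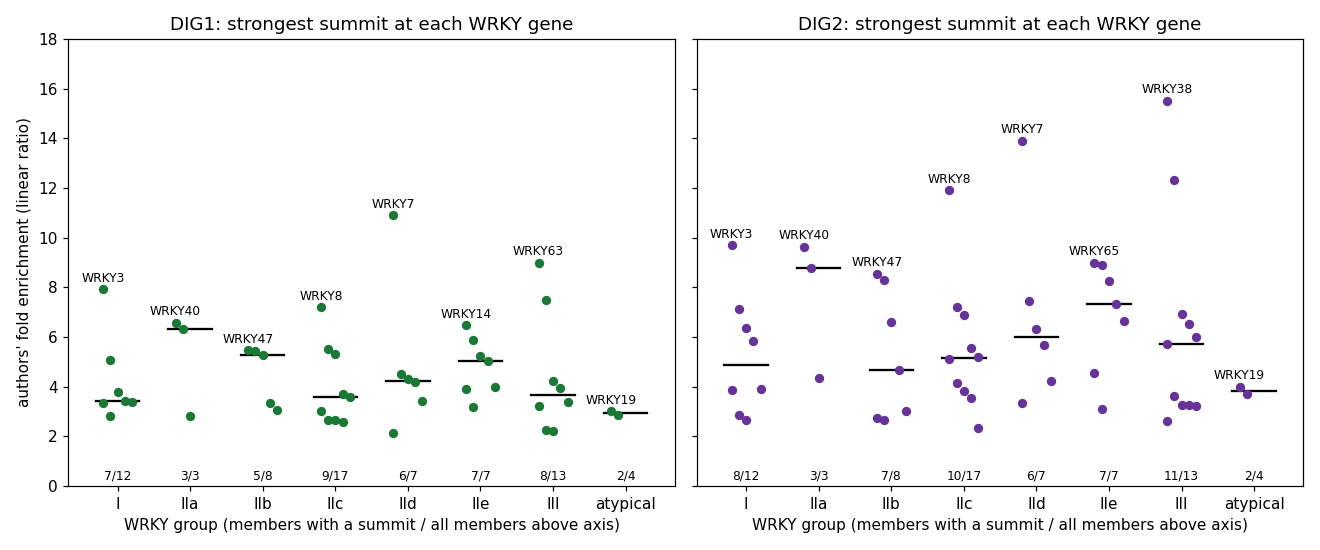
The authors' fold enrichment (linear ratio) of the strongest summit at each WRKY gene, for DIG1 (left) and DIG2 (right), by WRKY group. Each point is 1 gene with a summit, black lines are group medians, the highest gene of each group is named, and the numbers above the axis give genes with a summit of all members; WRKY7 is highest for DIG1 (10.9) and WRKY38 for DIG2 (15.5).

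Within the lists, the strongest summits of the 47 DIG1-bound members had a median fold of 3.90 and a median rank of 4391, against 3.42 and 5860.5 over all 10342 genes with a DIG1 summit. The 54 DIG2-bound members had a median fold of 5.62 and a median rank of 4702.5, against 4.17 and 7249 over all 11613 genes with a DIG2 summit. The lowest ranks among bound members were those of WRKY67 for DIG1 (12674, fold 2.23) and WRKY12 for DIG2 (15020, fold 2.35), and the lowest DIG1 fold was 2.11 at WRKY21.

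The groups differed in how many members were bound. All 3 genes of group IIa and all 7 of group IIe had summits of both proteins, as did 6 of 7 in group IId. The lowest shares among the standard groups were in group IIc, with 9 of 17 for DIG1 and 10 of 17 for DIG2 (52.9% and 58.8%), and in group I, with 7 and 8 of 12 (58.3% and 66.7%). Group IIb had 5 and 7 of 8, and group III had 8 and 11 of 13. The shares of groups IIc and I were still above the 37.7% and 42.3% of all genes. The groups are small, and whether their shares differ was not tested. They were assigned from general knowledge with earlier results of these data known. The 4 members left outside the standard groups include WRKY10 and WRKY16, which had no summit. Another assignment could change the group shares. Placing WRKY10 or WRKY16 in a standard group would lower its share, so that group IIa or IIe would no longer be bound throughout. Median flanks were 7362 bp in group IIe, 4377 bp in IId, 4347 bp in IIc and 1396.5 bp in group I.

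**Figure D3:**
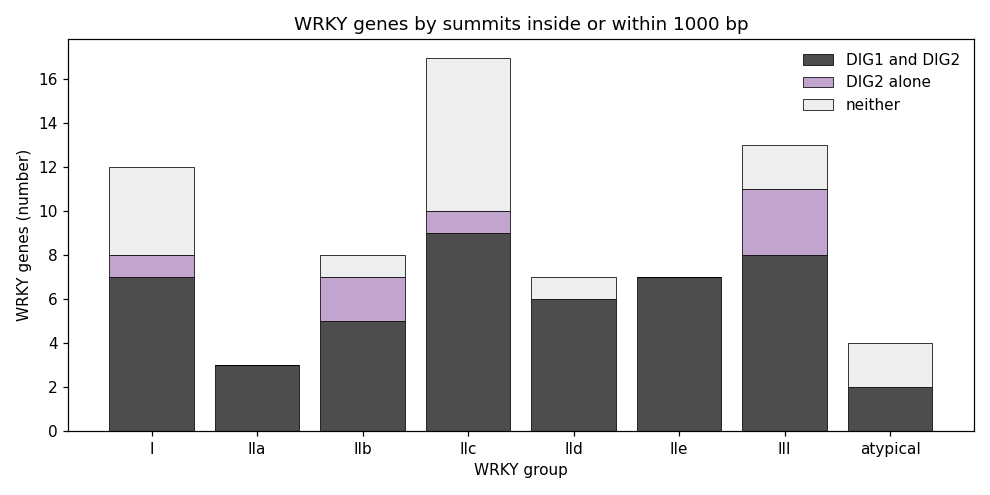
Number of WRKY genes in each group with summits of DIG1 and DIG2 (dark), of DIG2 alone (purple) or of neither (light), inside the gene or within 1000 bp. Groups IIa and IIe are dark throughout, and group IIc holds 7 of the 17 genes with neither.

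Group IIa genes encode WRKY18, WRKY40 and WRKY60, partners that bind each other and repress or activate ABA and defence genes. WRKY40 (AT1G80840) had folds of 6.56 (DIG1, rank 951) and 9.62 (DIG2, rank 909), 112 and 100 bp outside the gene, and a second summit 796 and 792 bp outside it. WRKY18 (AT4G31800) had summits 60 and 55 bp inside the gene, with folds of 6.33 and 8.79, and further ones 636 and 641 bp outside it with folds of 5.73 and 8.06. WRKY60 (AT2G25000) was lower in both lists, with folds of 2.80 (rank 7368) and 4.35 (rank 5498), and its summits at 620 and 558 bp were nearer to the neighbouring gene AT2G24990. Thus 2 of the 3 genes were in the strongest 25% of each list.

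Group IIe included WRKY22 and WRKY29, known from the MAP kinase response to bacterial flagellin. Their DIG1 folds were 5.01 and 3.90 and their DIG2 folds were 7.33 and 6.64. WRKY27, a gene that affects symptoms of bacterial wilt, had folds of 5.88 and 8.24. WRKY14 had 6.46 and 8.88, and WRKY65 had 5.22 and 8.98. The lowest of this group was WRKY35, with 3.19 at DIG1 rank 8012 and 3.09 at DIG2 rank 11927. For DIG1 4 of the 7 genes, and for DIG2 5 of the 7, were in the strongest 25% of the list.

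Group IId genes encode calmodulin-binding WRKY factors, several of which dampen basal defence. They had the most summits per gene, with 5 of 6 bound members at 2 or more summits in each list. WRKY11 held 5 in each list, with DIG1 folds from 2.36 to 4.29 and DIG2 folds from 3.82 to 7.44, outside both ends and inside the gene. WRKY7 and WRKY15 held 3 in each list, and WRKY17 held 3 DIG1 and 2 DIG2 summits. WRKY74 had none in either list, with the nearest DIG1 summit 3288 bp away. At least 2 summits lay at 20 WRKY genes for DIG1 and 27 for DIG2, while 11.5% and 15.3% of all genes had that many. At least 3 lay at 7 and 12 members, against 3.08% and 4.65%. Among genes with a summit, at least 2 lay at 20 of 47 members against 3144 of 10342 genes for DIG1. For DIG2 these were 27 of 54 against 4190 of 11613.

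In group IIb, WRKY6, a gene of senescence and phosphate transport, had DIG1 folds of 5.43 and 4.56 and DIG2 folds from 3.54 to 8.31. WRKY47 had 5.46 and 8.55. WRKY36, whose product binds the UVR8 photoreceptor and represses HY5, had 5.28 and 6.58. The DIG1 and DIG2 values of WRKY36 belong to different summits, 749 bp apart, since the order of its pair of summits differed between the lists. WRKY31 and WRKY42 had a DIG2 summit alone, and WRKY9 had neither.

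In group I, the immune regulator gene WRKY33 ranked below the family's median in both lists, with folds of 2.82 (DIG1, rank 7806) and 3.91 (DIG2, rank 7461), 29 and 34 bp outside the gene. WRKY25 and WRKY26, which act with WRKY33 in heat tolerance, had DIG1 folds of 3.80 and 3.32 and DIG2 folds of 7.12 and 5.85. WRKY2, a gene of zygote polarity and ABA responses of seeds, had 5.08 (rank 2342) in the DIG1 list and 3.85 (rank 7592) in the DIG2 list. In group IIc, WRKY57, a drought tolerance gene, had 3.57 and 5.55, and WRKY75, a gene of phosphate starvation, had 3.02 and 5.11. In group III, WRKY53, a senescence regulator gene, had 3.95 and 5.71, and WRKY70, a gene of salicylate signalling, had 3.23 and 6.53.

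Outside the standard groups were 4 members. WRKY45, placed in different groups by different classifications, had folds of 2.85 and 3.69. WRKY19, which also encodes parts of a resistance protein and a kinase, had 3.01 and 3.99, with summits nearer to the neighbouring gene AT4G12010. WRKY10 (MINI3, a seed size gene) and WRKY16 (TTR1, a resistance-protein fusion) had no summit.

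Most summits at WRKY genes lay outside the genes and close to an end, and the share inside was near that of all genes. Of 77 DIG1 summits in the windows, 18 were inside the gene (23.4%, against 26.4% of all summit and gene pairs), and of 96 DIG2 pairs 24 were inside (25%, against 27.1%). The strongest DIG1 summit was inside the gene at 8 members, outside within 300 bp at 24 and farther out at 15. Over all 10342 genes with a DIG1 summit these numbers were 2407, 3967 and 3968. For DIG2 they were 9, 28 and 17 members, against 2699, 4332 and 4582 of 11613 genes. Outside summits lay a median of 270 bp (DIG1) and 258.5 bp (DIG2) from the gene, against 326 and 340 bp over all genes. Summits lay outside both ends at 6 members for DIG1 and 10 for DIG2, against 4.14% and 5.6% of all genes. Among genes with a summit these were 6 of 47 members against 1135 of 10342 genes for DIG1. For DIG2 they were 10 of 54 against 1536 of 11613. Strand and exons are not in the gene table, so the start and the end of transcription were not told apart.

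**Figure D4:**
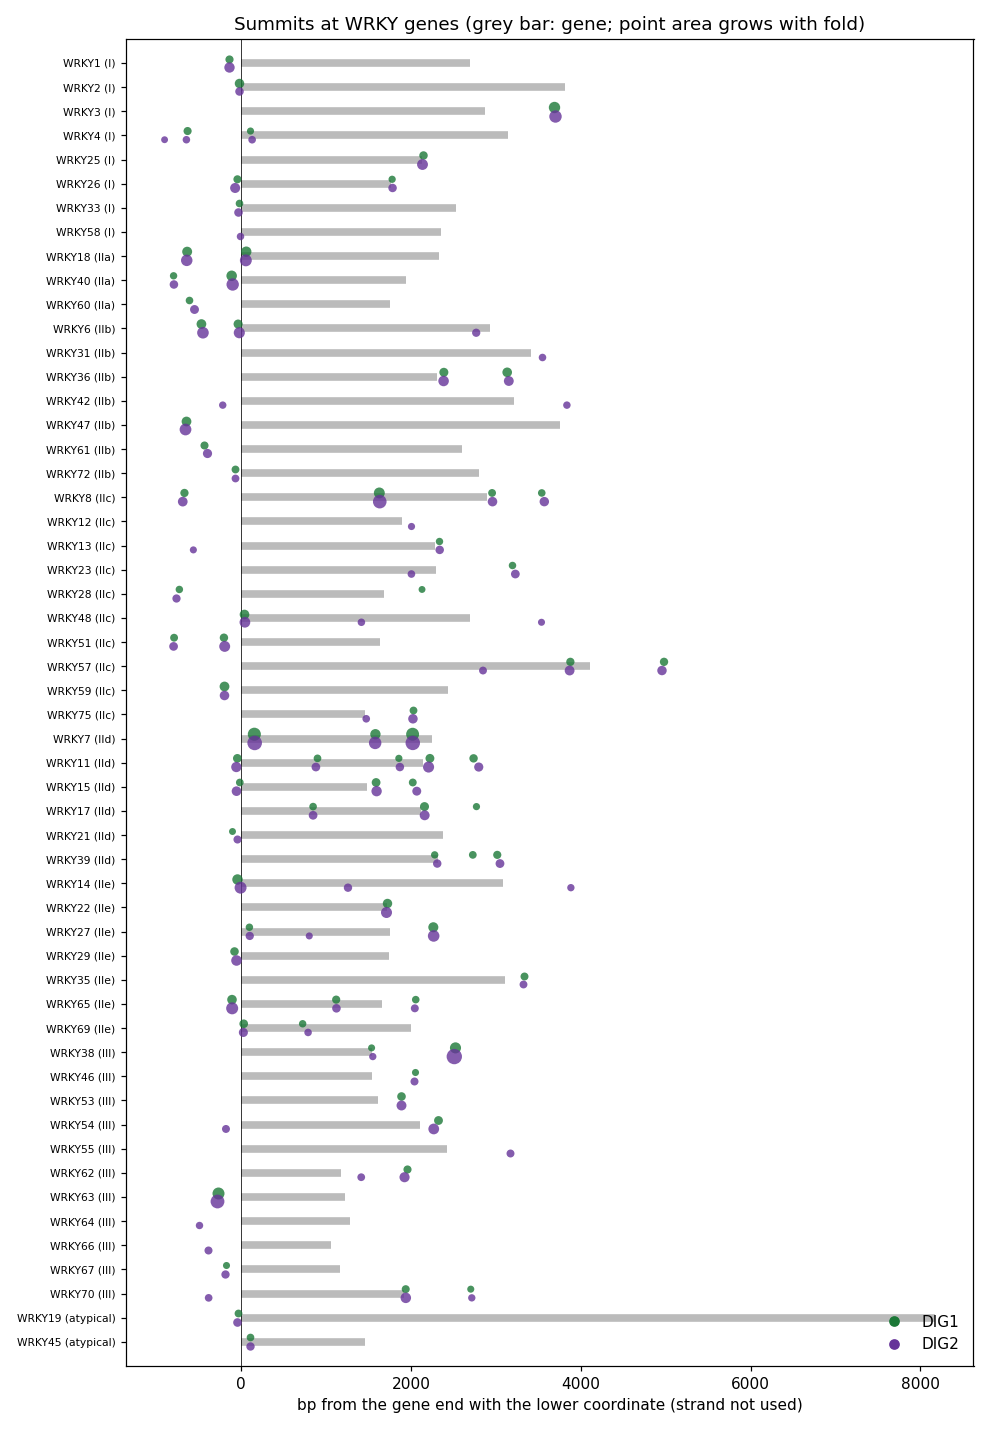
Positions of all DIG1 (green) and DIG2 (purple) summits at the 54 WRKY genes with a summit, in bp from the gene end with the lower coordinate; grey bars are genes, point area grows with the authors' fold, and groups are in brackets. DIG1 and DIG2 points lie above each other at most genes, and WRKY11 and WRKY8 carry the most.

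At genes with both proteins the strongest summits coincided. They were a median of 9 bp apart, at most 50 bp apart at 43 of the 47 genes, and in overlapping intervals at 46. The exceptions over 50 bp were WRKY4 (760 bp), WRKY36 (749 bp), WRKY60 (62 bp) and WRKY21 (60 bp). Both lists came from precipitations with an antibody to GFP and may share a control. These distances were not computed over all genes with both proteins. Whether WRKY genes differ from other genes in this is therefore not known. A strongest summit also reached another protein-coding gene at 10 members in each list, and was nearer to that gene at 6 in each list. For both lists these included WRKY15, WRKY19, WRKY26, WRKY39 and WRKY60.

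The 7 members with a DIG2 summit alone were WRKY12, WRKY31, WRKY42, WRKY55, WRKY58, WRKY64 and WRKY66. Their DIG2 folds ranged from 2.35 to 3.27 with a median of 2.66, and their ranks from 10550 to 15020. Members with both proteins had a median DIG2 fold of 5.99 and a median rank of 4150. The nearest DIG1 summit was 1720 bp from WRKY12, 2411 bp from WRKY58 and 67771 bp from WRKY42. With DIG2 cut to the 11343 peaks of the DIG1 list, 5 of the 7 kept the DIG2 summit (WRKY31, WRKY42, WRKY55, WRKY58 and WRKY66). WRKY12, which controls pith cell walls and flowering, and WRKY64 lost it. These 5 members are 7.04% of the family, against 2.66% of all genes with DIG2 alone at equal length. With −log10 p of at least 30 again 7 members had DIG2 alone (against 7.75% of all genes), but only 3 of them, WRKY31, WRKY55 and WRKY66, were the same. The other 4, WRKY13, WRKY21, WRKY46 and WRKY67, had DIG1 summits below that threshold. Windows of 500 and 3000 bp left 10 and 5 members with DIG2 alone (14.1% and 7.04%, against 5.52% and 6.4% of all genes). Of these members, 6 and 4 were among the 7.

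The 17 members with no summit were WRKY20, WRKY32, WRKY34 and WRKY44 (group I), WRKY9 (IIb), WRKY24, WRKY43, WRKY49, WRKY50, WRKY56, WRKY68 and WRKY71 (IIc), WRKY74 (IId), WRKY30 and WRKY41 (III), WRKY10 and WRKY16. Among them are WRKY34, a pollen gene, and WRKY44 (TTG2), a gene of trichomes and seed coats. Their nearest DIG1 summit was a median of 6035 bp away, from 1055 bp at WRKY43 to 27653 bp at WRKY44. Their nearest DIG2 summit was a median of 3949 bp away, from 1077 bp at WRKY43 to 16625 bp at WRKY34. Just outside the window lay WRKY43, WRKY49 (1105 and 1101 bp for DIG1 and DIG2) and WRKY20 (1147 and 1155 bp). Counting each gene's nearest summit, the members just inside it were WRKY23 (889 bp), WRKY3 (817 bp) and WRKY62 (778 bp) for DIG1. For DIG2 they were WRKY3 (824 bp), WRKY28 (762 bp) and WRKY55 (741 bp). A peak below the deposited threshold would not be seen, so binding at these genes was not detected rather than absent.

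Neighbouring WRKY genes all belonged to group III, and within each adjacent pair 1 gene had summits of both proteins and the other a DIG2 summit alone. WRKY55 and WRKY54 are adjacent with 919 bp between them. The interval between them held a DIG2 summit with a fold of 3.20 (rank 11458), 741 bp from WRKY55 and 179 bp from WRKY54, and no DIG1 summit. The stronger signal lay beyond the far end of WRKY54, which acts with WRKY70 in salicylate responses and senescence, with a DIG1 fold of 4.24 at 207 bp and a DIG2 fold of 6.94 at 159 bp. Neither list had a summit inside WRKY55 or WRKY54.

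WRKY67 and WRKY64 are adjacent with 3857 bp between them, and WRKY63 follows after 3 other genes and 13518 bp. WRKY67 had folds of 2.23 and 3.60, and WRKY64 a DIG2 fold of 2.60 at rank 14782. WRKY67 had the lowest DIG1 rank of the bound members and WRKY64 the second lowest DIG2 rank, after WRKY12. The space between WRKY67 and WRKY64 held stronger summits that reached neither gene, with folds of 4.14 (DIG1) and 7.47 (DIG2). Before WRKY63 both lists had 3 summits at nearly the same positions, and DIG2 had a further one with a fold of 2.37 (rank 14430) with no DIG1 summit near it. The summit nearest to WRKY63 had folds of 8.98 and 12.3, and the other two found in both lists, outside its window, had 6.22 and 6.49 for DIG1 and 10.2 and 9.69 for DIG2. No summit was shared by windows of WRKY67, WRKY64 and WRKY63.

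**Figure D5:**
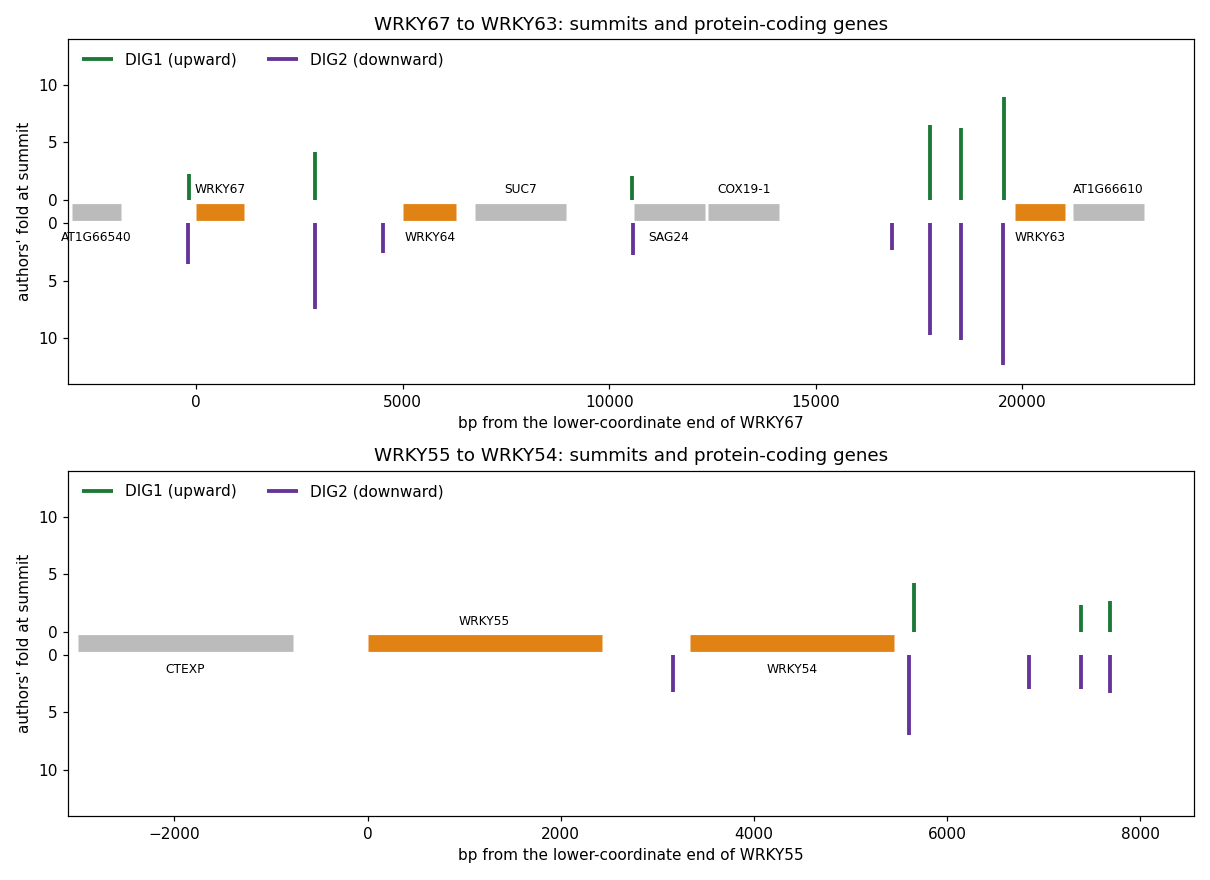
Summits around the neighbouring group III genes WRKY67, WRKY64 and WRKY63 (top) and WRKY55 and WRKY54 (bottom), with the authors' fold at each summit drawn upward for DIG1 and downward for DIG2, in bp from the first WRKY gene. Orange bars are WRKY genes and grey bars other protein-coding genes; the highest summits lie before WRKY63 (8.98 and 12.3).

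Close relatives were set side by side in 16 pairs of WRKY genes, which hold 32 members. The pairs were named from general knowledge with earlier results of these data known, without protein identities. Of these 32 genes 26 had a DIG1 summit, against 47 of the 71 members. The pairs thus hold a larger share of bound genes than the family, which by itself makes pairs of bound genes common. Both genes had DIG1 summits in 11 pairs, neither in 1 pair (WRKY24 and WRKY56) and 1 of them in 4 pairs. The DIG2 counts for the pairs were the same, with 26 of the 32 genes bound against 54 of the 71 members. Whether relatives share their state more than other members do was not tested. The pairs that differed were WRKY39 and WRKY74, WRKY53 and WRKY41, WRKY2 and WRKY34, and WRKY51 and WRKY50, with the bound gene first. Folds of those bound genes ranged from 3.43 to 5.08 for DIG1 and from 3.85 to 7.19 for DIG2. Pairs that shared their state could still differ in strength. WRKY7 had a DIG1 fold of 10.9 and its relative WRKY15 4.18, WRKY8 had 7.19 and WRKY28 2.65, and WRKY3 had 7.91 and WRKY4 3.38. WRKY38 had 7.48 and WRKY62, which acts with it, 3.39. The DIG2 folds of the same pairs were 13.9 and 6.32, 11.9 and 3.53, 9.68 and 2.84, and 15.5 and 5.99. The DIG1 and DIG2 values of WRKY4 belong to different summits. WRKY11 and WRKY17, partly redundant in defence, were close at 4.29 and 4.49 for DIG1 and 7.44 and 5.69 for DIG2. Without replicates it cannot be said which of these gaps exceeds the error.

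Genes that act with WRKY factors were described by the same rule. Their lists were chosen with earlier results of these data known and need not hold every such gene. Of 12 VQ loci 11 had summits of both proteins (91.7%, against 36.3% of all genes) and 1 had neither. Of the 12 loci, 6 carry their listed name in the gene table, and all 6 were bound. Among them were MKS1, a substrate of MPK4 that binds WRKY33 (folds 4.04 and 6.73), SIB2 (4.20 and 6.88), which acts with WRKY33, and VQ9 (4.55 and 6.28), a partner of WRKY8. Of 10 MAP kinase cascade genes 4 had summits of both. MKK9 had folds of 7.03 and 12, MPK3 had 6.63 and 11, MKK5 had 2.75 and 3.41, and MKK1 had 2.32 and 3.11, while MPK4, MPK6, MKK2, MKK4, MEKK1 and MPK11 had none. That share (40%) was close to the 37.7% and 42.3% of all genes. Of 14 genes of salicylate and camalexin 10 had summits of both (71.4%, against 36.3% of all genes). The strongest were EDS1, a lipase-like immune regulator (8.67 and 11.6), NIMIN1, which binds NPR1 (5.57 and 10.7), NPR3 (5.01 and 8.97) and NPR4 (4.61 and 9.86), receptors of salicylic acid. NPR1, PR1, CYP71A13 and CBP60G had none.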

How the data were processed

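Peaks were called with MACS2 on Bowtie 0.12.7 alignments to TAIR10, per the submitters' processing notes. For the MACS2 version, pooling and the control, the sources used here give nothing. The authors' deposited values for a summit are a fold enrichment (ratio), −log10 p, −log10 q and a score, of which the last 2 were not used. Summits were start plus offset, counted from 1. Genes came from a RefSeq table of TAIR10.1 (38312 entries), none of whose coordinates is printed; shifting summits in 50 bp steps up to 2000 bp gave the fewest inside genes at a shift of 0 for both lists. The table holds no strand or sequence, so the planned motif search and protein identity were not run, and close relatives were named from general knowledge, as were groups. Members, groups, relative pairs and lists were chosen with earlier results of these data known. Named genes were the 10 strongest per list, those with 1 or no list, group IIa, neighbouring pairs, relatives and the strongest partner genes; others are named for their roles. Of 12 VQ loci 6 carry names the table lacks and are given as counts only. Reads and depth were not used. Computation used Python 3.11.15, pandas 2.3.3 and scipy 1.17.1, and the counting was checked against a plain double loop.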

Additional observations from a re-analysis of the deposited data

How the results depend on the processing

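The counts of 47 DIG1 and 54 DIG2 genes stayed within 1.5 times under 10 of 12 alternatives each. The 10 included windows of 500 and 3000 bp and gene ends only. At −log10 p of at least 30 there were 43 and 50 genes, against 28.3% and 35.2% of all genes. Lists of equal length gave 47 and 52 (against 37.7% and 36.9%). That setting kept the whole DIG1 list, so the DIG1 count could not change. The strongest summit per interval gave 46 and 52 (against 37% and 41.3%). The nearest gene only gave 43 and 50 (against 28.8% and 32.9%). Interval overlap gave 51 and 57 (against 40.6% and 45.2%). Accepting the name ATWRKY gave 47 and 54 of 72, and leaving out resistance-protein fusions gave 46 and 53 of 69. Settings that by construction admit fewer summits moved the counts. These were the gene body alone (14 and 17, against 11.9% and 14.2% of all genes) and the 1000 strongest peaks (6 and 7, against 4.2% and 3.98%). The count with both proteins ranged from 39 (500 bp, against 29.6% of all genes) to 55 (3000 bp, against 53.3%). Of 16 relative and 2 adjacent pairs, 12 had the same state for DIG1 (9 to 13 under the alternatives) and 14 for DIG2 (10 to 14). The count with DIG1 alone moved from 0 to 1 at 500 bp (against 1.4% of all genes). Group and partner counts all stayed within 1.5 times at 500 bp, 3000 bp and the stricter threshold. With so few genes this rule allows large shifts in share. At 500 bp group IIa fell from 100% to 66.7% in both lists. At 3000 bp group I rose from 58.3% to 83.3% for DIG1. No paired analysis was possible because each factor has 1 list and no test was made.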
